A study of Homo sapiens with 12 samples.

Results

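NF-κB is the transcription factor family that classical Hodgkin lymphoma (cHL) cells keep active, and the RNA of 10 of its genes was followed here: the 5 subunits NFKB1, NFKB2, REL, RELA and RELB, the inhibitors NFKBIA, NFKBIE and TNFAIP3, the atypical inhibitor family member BCL3 and the adaptor TRAF1. They were picked by symbol as a set of pathway genes, with earlier results of these data known, and all 10 were found among the 26210 genes of the deposited table. RNA-Seq was done on total RNA, depleted of ribosomal RNA, from 6 groups of human cell lines with 2 libraries each, 12 in all. KM-H2, L1236 and L428 are cHL lines, derived from Hodgkin/Reed-Sternberg cells, and were untreated. The control lines were Reh, a B-precursor leukaemia line, and Namalwa, a Burkitt lymphoma line, both untreated. The sixth group, Reh+PMA, was Reh treated with 2 ng/ml of the phorbol ester PMA, an activator of protein kinase C, for a time that the sample labels do not state. The cHL lines were grown in IMDM and the controls in RPMI, so medium and cHL origin cannot be told apart, and no group carried a transgene or an engineered deletion.

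NF-κB proteins bind DNA as dimers. In the canonical route the IκB proteins, among them those made by NFKBIA and NFKBIE, hold dimers of p50 (from NFKB1), RELA and REL in the cytoplasm until the IκB kinase complex marks them for degradation. In the non-canonical route the kinase NIK, made by MAP3K14, leads to the processing of the NFKB2 product p100 to p52, which pairs with RELB. Several of these genes are themselves NF-κB targets, and the product of TNFAIP3, A20, removes ubiquitin chains from upstream adaptors, so the pathway makes its own inhibitors. In B cells the signal comes from the antigen receptor and from receptors such as CD40. RNA levels, which are what was measured, do not report the activity or the location of the proteins.

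Values are FPKM, fragment numbers scaled to transcript length and library depth, and may therefore be set side by side between genes. All 4 cHL markers examined (TNFRSF8, CCL17, FSCN1 and IRF4) reached 1 FPKM in each cHL line, and TNFRSF8 and CCL17 were below 1 FPKM in both controls. FSCN1 was however 14.4 and 15.4 FPKM in Reh and IRF4 23.7 and 29.0 in Namalwa. The 5 B-lineage markers summed to 818 to 1364 FPKM in Reh, Reh+PMA and Namalwa and to 0.773 to 34.7 FPKM in the cHL lines. In Reh, Reh+PMA and Namalwa most of the sum was CD79A and CD79B. MS4A1 was below 1 FPKM in Reh and Reh+PMA, and PAX5 in L1236 (19.8 and 33.8 FPKM) was above PAX5 in Reh+PMA (11.3 and 17.4). Of the 4 B-precursor markers, DNTT, RAG1 and IGLL1 were above 1 FPKM in Reh and VPREB1 was listed at 0, whereas RAG1, IGLL1 and VPREB1 (7.89 and 11.4 FPKM) were above it in Namalwa and DNTT was listed at 0. The 3 T-cell markers were below 1 FPKM outside KM-H2, where they summed to 14.5 and 23.5 FPKM, nearly all of it CD3D (13.5 and 22.5), with CD3E at 0 and 0.197 and CD2 at 0.779 and 1.01. Of the 3 myeloid markers KM-H2 had CD14 at 4.56 and 5.79 FPKM and CSF1R at 1.13 and 2.05, with LYZ below 1. The part of these genes in the results was not tested. The libraries of a cHL line differed more than those of a control line: over the 14679 genes tested, the SD of the log2 difference between the paired libraries was 0.850 to 0.949 in the cHL lines and 0.393 to 0.575 in the other groups.

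The promoters of several of these genes hold the κB consensus, the decamer that NF-κB dimers bind. The RefSeq promoter table (GRCh38.p14) had entries for 8 of the 10 genes, none for RELB or NFKBIE, and 5 of the 8 held a match to the consensus on either strand in the 250 bases before the gene start. Of all 27305 gene symbols in that table, 11.8% had a match in any of their entries, as had 9.96% of the 35116 single entries. The entries of RELA, BCL3 and TRAF1 held none, which says only that these letters are not in those windows. A sequence is shown for each of the 5 genes with a match, whatever its test results. Each of these genes was called higher in the mean of the cHL lines than in the mean of both controls (below), though TNFAIP3 and NFKB1 were not called in every line. BCL3 and TRAF1, which had no match, were called higher by the same measure. Each sequence runs 5′ to 3′ on the gene's strand, with the matches and 25 flanking bases on each side, and capitals mark the bases within a match. In NFKB2 and in REL a pair of matches overlaps, which gives a run of capitals longer than one decamer.
NFKB1 promoter, chr4:102501285-102501344, plus strand: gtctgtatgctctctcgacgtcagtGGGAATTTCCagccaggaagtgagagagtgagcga
NFKB2 promoter, chr10:102394446-102394534, plus strand: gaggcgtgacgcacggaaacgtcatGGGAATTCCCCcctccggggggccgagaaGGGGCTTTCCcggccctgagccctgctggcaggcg
REL promoter, chr2:60881502-60881562, plus strand: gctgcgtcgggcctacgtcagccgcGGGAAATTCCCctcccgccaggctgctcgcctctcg
NFKBIA promoter, chr14:35404796-35404855, minus strand: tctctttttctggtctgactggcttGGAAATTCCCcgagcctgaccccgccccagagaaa
TNFAIP3 promoter, chr6:137867167-137867238, plus strand: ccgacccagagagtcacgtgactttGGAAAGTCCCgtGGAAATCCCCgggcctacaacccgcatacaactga
The matches began 49 bases before the gene start in NFKB1 and 81 in NFKBIA. In TNFAIP3 there were 2, beginning 67 and 55 bases before it, and in REL the overlapping pair began at 47 and 46. In the NFKB2 entry shown they began at 107, 106 and 78, and a further NFKB2 entry, for a start downstream of this one, had matches at 176 and 21. A match is a resemblance of letters, and binding was not measured here.

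Among the subunits NFKB2 differed most clearly between cHL and control lines, and its level also rose with PMA. NFKB2 (chr10:104153867-104162281, GRCh37, plus strand) makes p100, the precursor of p52 and itself an inhibitor of RELB. NFKB2 stood at 5.83 and 8.69 FPKM in Reh, 26.3 and 28.6 in Reh+PMA, 13.5 and 18.2 in Namalwa, 83.7 and 147 in KM-H2, 54.1 and 57.0 in L1236, and 75.0 and 85.0 in L428. Every cHL library was above every other library, Reh+PMA lay above both untreated controls, and of neighbours in the order of group means only KM-H2 and L428 overlapped. RELB (chr19:45504719-45541450, GRCh37, plus strand) makes the usual partner of p52. RELB was 1.04 and 2.13 FPKM in Reh, 12.8 and 13.3 in Reh+PMA, 19.0 and 32.5 in Namalwa, 29.2 and 42.8 in KM-H2, 12.5 and 19.3 in L1236, and 16.6 and 27.8 in L428. Reh alone was low, and all the other groups overlapped with their neighbours in the order of means, so Namalwa was not separated from the cHL lines.

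The canonical subunits varied less. REL (chr2:61108626-61158747, GRCh37, plus strand) makes c-Rel, a subunit used mainly in lymphoid cells. REL was 4.88 and 7.84 FPKM in Reh, 5.87 and 5.88 in Reh+PMA, 14.2 and 24.1 in Namalwa, 24.2 and 26.7 in KM-H2, 18.3 and 19.9 in L1236, and 34.9 and 39.2 in L428. L428 was highest, Namalwa overlapped with L1236, and Reh with Reh+PMA. NFKB1 (chr4:103422487-103538459, GRCh37, plus strand) makes p105 and p50. NFKB1 was 13.1 and 19.1 FPKM in Reh, 22.9 and 27.4 in Reh+PMA, 20.0 and 22.8 in Namalwa, 30.9 and 53.0 in KM-H2, 41.7 and 51.3 in L1236, and 18.5 and 24.2 in L428. KM-H2 and L1236 were above all other libraries for NFKB1, while L428 overlapped with Namalwa and Reh. RELA (chr11:65421070-65430561, GRCh37, minus strand) makes p65, the most general transactivating subunit. RELA was 18.5 and 18.6 FPKM in Reh, 25.5 and 31.8 in Reh+PMA, 19.4 and 21.8 in Namalwa, 15.4 and 31.9 in KM-H2, 11.9 and 16.3 in L1236, and 19.1 and 19.3 in L428. RELA had the narrowest range of the 10 genes, its highest group mean being 2.03 times its lowest, against 15.9 for NFKB2 and 22.7 for RELB.

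**Figure D1:**
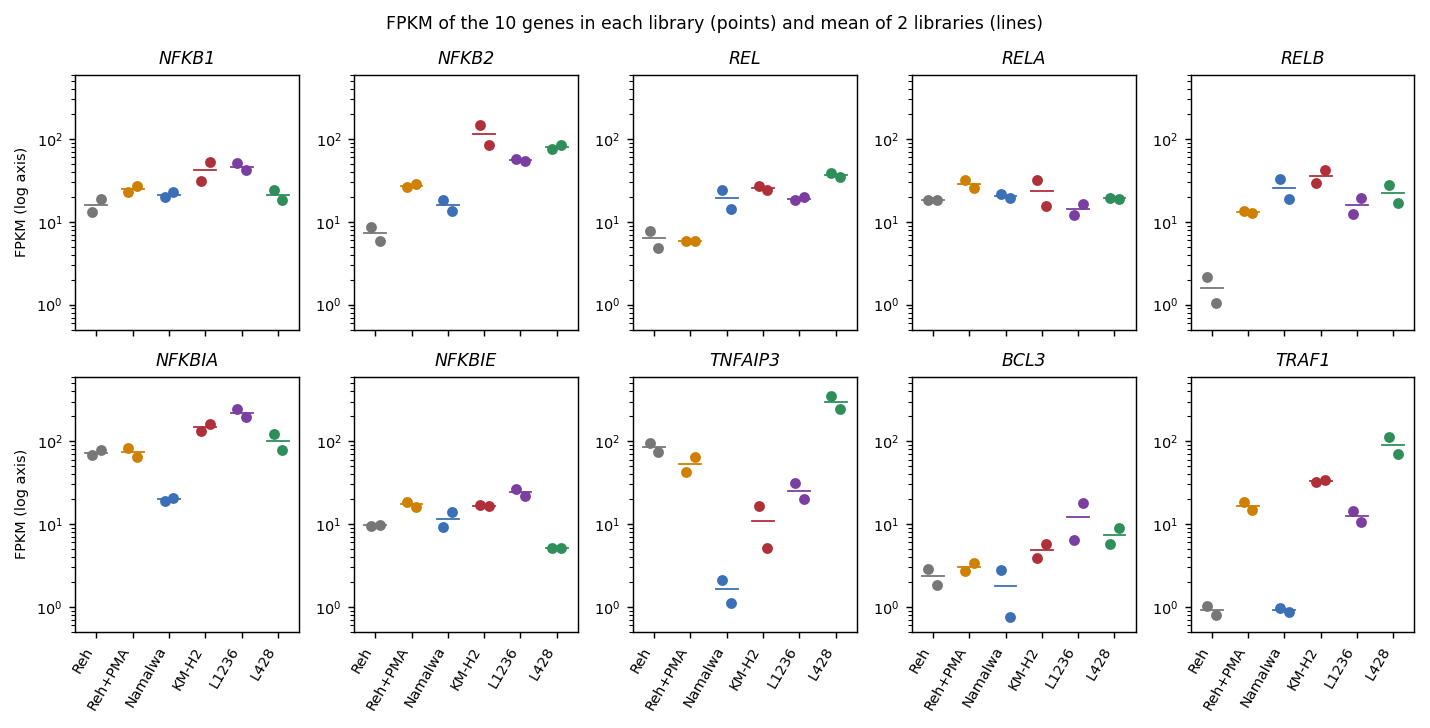
Level of each of the 10 genes in each library (FPKM, log axis) by group, with 1 point per library and 2 libraries per group; a bar marks the group mean. NFKB2 is high in all cHL libraries and intermediate in Reh+PMA, TRAF1 in Reh+PMA lies between L1236 and KM-H2, TNFAIP3 ranges from 1.12 FPKM in Namalwa to 355 in L428, and RELA stays between 11.9 and 31.9.

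Because the subunits compete for one another as dimer partners, their RNAs were also expressed as shares of the summed FPKM of all 5. The sum was 49.4 and 50.2 FPKM in Reh, 100.1 and 100.2 in Reh+PMA, 88.8 and 116.6 in Namalwa, 219 and 265.4 in KM-H2, 151 and 151.2 in L1236, and 174.2 and 185.5 in L428. RELA and NFKB1 made up most of it in Reh, with mean shares of 37.2% and 32.3%, whereas NFKB2 held 14.6% and RELB 3.2%. In Reh+PMA the mean share was 27.4% for NFKB2, 13.1% for RELB and 5.9% for REL, which had held 12.8% in untreated Reh. In the cHL lines NFKB2 was the largest single share, at 46.7% in KM-H2, 36.8% in L1236 and 44.6% in L428. RELA was at 9.3% to 10.7% there. Namalwa had no dominant subunit: its shares ran from 15.4% for NFKB2 to 24.7% for RELB. These shares describe RNA and carry no test of their own.

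**Figure D2:**
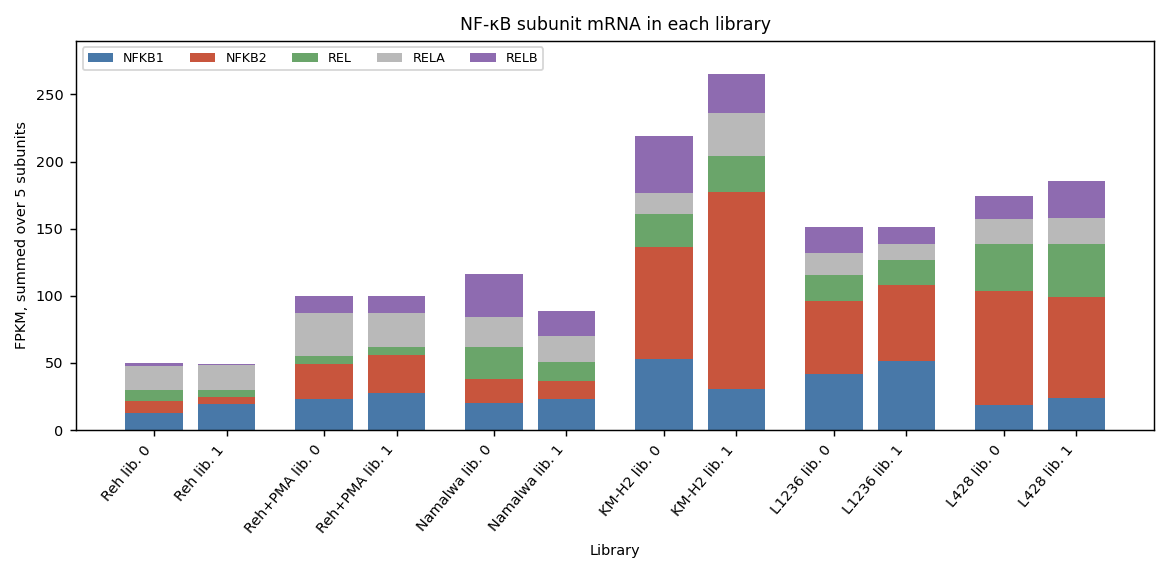
Make-up of the NF-κB subunit RNA in each of the 12 libraries: stacked bars give the FPKM of NFKB1, NFKB2, REL, RELA and RELB, whose height is their sum. The sum is 49.4 to 50.2 FPKM in Reh and at least 151 in every cHL library, where NFKB2 is the largest segment.

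The inhibitors did not move as a block. NFKBIA (chr14:35870285-35873955, GRCh37, minus strand) makes IκBα, the fast feedback inhibitor. NFKBIA was 67.5 and 77.3 FPKM in Reh, 64.6 and 83.5 in Reh+PMA, 19.1 and 20.6 in Namalwa, 134 and 159 in KM-H2, 194 and 242 in L1236, and 77.4 and 121 in L428. The lowest cHL library was above the highest Reh library by a small margin only, and L428 overlapped with Reh+PMA. NFKBIE (chr6:44225903-44233525, GRCh37, minus strand) makes IκBε, a slower inhibitor. NFKBIE was 9.53 and 9.81 FPKM in Reh, 15.9 and 18.5 in Reh+PMA, 9.17 and 13.8 in Namalwa, 16.4 and 16.8 in KM-H2, 21.7 and 26.4 in L1236, and 5.09 in both L428 libraries. L428 was below all other libraries and L1236 above all others, so the cHL lines took both ends of its range. TNFAIP3 (chr6:138188351-138204451, GRCh37, plus strand) makes A20. TNFAIP3 was 73.8 and 95.2 FPKM in Reh, 41.9 and 64.0 in Reh+PMA, 1.12 and 2.12 in Namalwa, 5.07 and 16.6 in KM-H2, 19.9 and 30.9 in L1236, and 246 and 355 in L428. No neighbouring groups overlapped for TNFAIP3, whose highest group mean was 185 times its lowest, and KM-H2 and L1236 lay below Reh.

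BCL3 (chr19:45250962-45263301, GRCh37, plus strand) makes a nuclear IκB family protein that can turn p50 or p52 homodimers into activators. BCL3 was 1.84 and 2.89 FPKM in Reh, 2.72 and 3.37 in Reh+PMA, 0.754 and 2.77 in Namalwa, 3.87 and 5.78 in KM-H2, 6.48 and 17.7 in L1236, and 5.67 and 8.88 in L428. Every cHL library was above every other library, but BCL3 was low throughout, and its paired libraries differed by a larger ratio than those of any other of the 10 genes in L1236 and in Namalwa. TRAF1 (chr9:123664671-123691451, GRCh37, minus strand) makes an adaptor of TNF receptors that NF-κB induces. TRAF1 was 0.804 and 1.02 FPKM in Reh, 14.8 and 18.5 in Reh+PMA, 0.865 and 0.961 in Namalwa, 31.8 and 33.9 in KM-H2, 10.5 and 14.3 in L1236, and 69.5 and 111 in L428. TRAF1 was close to 1 FPKM in both untreated controls and above 10 FPKM in all others, with Reh+PMA between L1236 and KM-H2.

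With PMA, 4 of the 10 genes passed the test as higher in Reh and none as lower: TRAF1, RELB, NFKB2 and NFKBIE. Of all 14679 genes tested, 14.7% were higher with PMA and 17.2% lower, by limma on log2(FPKM + 1) at an adjusted p under 0.05. On that scale TRAF1 differed by 3.20 ± 0.25 (SE; limma, adjusted p = 4.39e-05). RELB differed by 2.48 ± 0.37 (limma, adjusted p = 0.00137). NFKB2 differed by 1.80 ± 0.29 (limma, adjusted p = 0.00193). The 3 genes make an adaptor and the p100 and RELB pair of the non-canonical route. NFKBIE differed by 0.77 ± 0.21 (limma, adjusted p = 0.0245), a call that did not hold when any one of the Reh and Reh+PMA libraries was left out, with adjusted p from 0.0575 to 0.142. The other subunits did not pass: NFKB1 differed by 0.63 ± 0.29 (limma, adjusted p = 0.133), RELA by 0.60 ± 0.31 (limma, adjusted p = 0.174) and REL by -0.07 ± 0.27 (limma, adjusted p = 0.931). Leaving out either KM-H2 library, which bears on the contrast only through the shared spread, took RELA to an adjusted p of 0.0481. Among the inhibitors NFKBIA differed by 0.02 ± 0.26 (limma, adjusted p = 1) and TNFAIP3 by -0.68 ± 0.48 (limma, adjusted p = 0.321), although both Reh+PMA libraries were below both Reh libraries for TNFAIP3. BCL3 differed by 0.28 ± 0.49 (limma, adjusted p = 0.748). The median over the 10 genes was 0.61, beside -0.03 over all genes tested. The summed B-precursor markers were 959 and 1036 FPKM in Reh and 120 and 123 in Reh+PMA. The summed myeloid markers were 0.591 and 1.18 FPKM in Reh and 11.6 and 12.1 in Reh+PMA, where CSF1R made up 11.2 and 11.8 and CD14 and LYZ were below 1. The part of either list in these differences was not tested. Bulk RNA cannot tell a change in every cell from a change in the share of cells that respond.

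Between the mean of the 3 cHL lines and the mean of the 2 untreated controls, 8 of the 10 genes passed the test as higher in the cHL lines and none as lower. Of all genes tested, 29.6% were higher and 25.8% lower, so calls were common in this comparison. TRAF1 differed by 4.16 ± 0.16 (limma, adjusted p = 1.25e-07) and NFKB2 by 2.78 ± 0.19 (limma, adjusted p = 2.42e-06). NFKBIA differed by 1.90 ± 0.17 (limma, adjusted p = 1.28e-05), so the RNA of this inhibitor was higher too. RELB differed by 1.56 ± 0.24 (limma, adjusted p = 5e-04), TNFAIP3 by 1.54 ± 0.31 (limma, adjusted p = 0.00249) and BCL3 by 1.49 ± 0.31 (limma, adjusted p = 0.00317). REL differed by 1.20 ± 0.17 (limma, adjusted p = 0.000362) and NFKB1 by 0.86 ± 0.19 (limma, adjusted p = 0.00389). RELA, at -0.10 ± 0.20 (limma, adjusted p = 0.694), and NFKBIE, at 0.28 ± 0.14 (limma, adjusted p = 0.117), did not pass, though NFKBIE did (adjusted p = 0.0328) without Namalwa library 1. The median over the 10 genes was 1.51, beside 0.02 over all genes.

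Both libraries of a line share that line, and the calls rest on the spread between libraries. With each cell line as the unit (3 lines against 2), no member passed in limma, the smallest adjusted p being 0.0996 for NFKB2. In that fit 80 of 14679 genes were called, and 4 members (NFKB2, TRAF1, BCL3 and NFKBIA) were at an unadjusted p under 0.05, as were 1983 genes. NFKB2, NFKBIA, BCL3 and TRAF1 were also the 4 of 10 genes for which every cHL library exceeded every Reh and Namalwa library, which held for 9.5% of all genes, while 8.06% had every cHL library below and none of the 10 did.

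**Figure D3:**
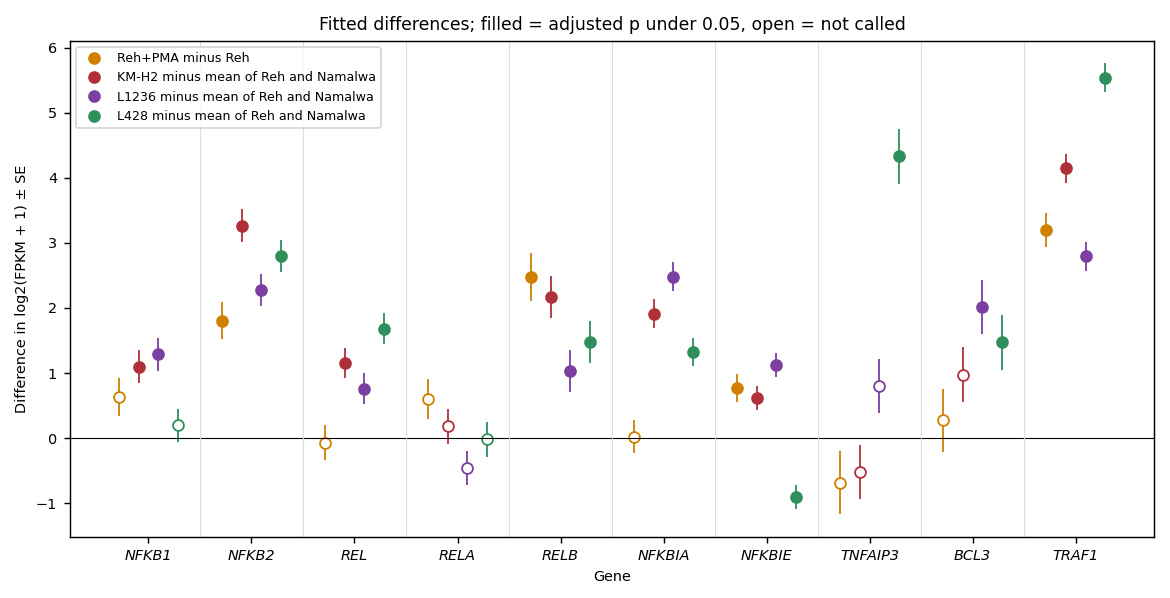
Difference on the log2(FPKM + 1) scale for each of the 10 genes between Reh+PMA and Reh (orange) and between each cHL line and the mean of Reh and Namalwa (red, purple and green); points are limma estimates, bars their standard errors, and filled points passed an adjusted p under 0.05. TRAF1 is higher in all 4 comparisons (2.79 to 5.54), NFKBIA is at 0.02 with PMA and at 1.32 to 2.48 in the cHL lines, and NFKBIE in L428 (-0.91) is the one filled point below 0.

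The 2 controls differed from each other, which decides some of these values. Of the 10 genes 3 passed the test as higher in Namalwa than in Reh and 2 as lower, against 10.3% and 14.7% of all genes. RELB was higher in Namalwa by 3.36 ± 0.37 (limma, adjusted p = 0.000138) and REL by 1.44 ± 0.27 (limma, adjusted p = 0.00383), the latter not called (adjusted p = 0.095) when only these 4 libraries were fitted. NFKB2 was higher by 1.03 ± 0.29 (limma, adjusted p = 0.0277), a call that was lost without Namalwa library 0 (adjusted p = 0.161) or without Reh library 1 (adjusted p = 0.197), and also when only these 4 libraries were fitted (adjusted p = 0.0959). The inhibitors TNFAIP3 and NFKBIA were lower in Namalwa, with TNFAIP3 at -5.04 ± 0.48 (limma, adjusted p = 5.35e-05) and NFKBIA at -1.81 ± 0.26 (limma, adjusted p = 0.000691), while NFKBIE differed by 0.20 ± 0.21 (limma, adjusted p = 0.595). Each control was therefore also used alone, a choice made after the values had been seen. Against Reh alone 7 of the 10 genes were called higher in the cHL lines and none lower, with 25.9% and 21.9% of all genes. TNFAIP3 then differed by -0.98 ± 0.39 (limma, adjusted p = 0.0667), the opposite sign. Against Namalwa alone 6 of the 10 were called higher and none lower, with 28% and 20.4% of all genes. RELB then differed by -0.12 ± 0.30 (limma, adjusted p = 0.775) and REL by 0.48 ± 0.22 (limma, adjusted p = 0.103), while TNFAIP3 differed by 4.06 ± 0.39 (limma, adjusted p = 3.74e-05). NFKB1, NFKB2, NFKBIA, BCL3 and TRAF1 were called higher against either control.

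Line by line against the same controls, 7 of the 10 genes were called higher in KM-H2 and none lower, against 24.2% and 22.9% of all genes. In L1236 8 were called higher and none lower, against 22.9% and 22.5%. In L428 7 were called higher and 1, NFKBIE, lower, against 23.7% and 23.2%. NFKB2 was called in each line, at 3.26 ± 0.25 in KM-H2 (limma, adjusted p = 7.31e-06), 2.28 ± 0.25 in L1236 (limma, adjusted p = 7.49e-05) and 2.80 ± 0.25 in L428 (limma, adjusted p = 2.05e-05). TRAF1, NFKBIA, REL and RELB were also called in each line, with TRAF1 at 4.14, 2.79 and 5.54 in KM-H2, L1236 and L428. By library, however, RELB of every cHL line overlapped with Namalwa (19.0 and 32.5 FPKM). So did REL of L1236 (18.3 and 19.9 FPKM, against 14.2 and 24.1 in Namalwa). TNFAIP3 was called in L428 only, at 4.33 ± 0.42 (limma, adjusted p = 3.42e-05), beside -0.52 ± 0.42 in KM-H2 (limma, adjusted p = 0.345) and 0.80 ± 0.42 in L1236 (limma, adjusted p = 0.148). NFKBIE was higher in L1236 by 1.12 ± 0.19 (limma, adjusted p = 0.000986) and in KM-H2 by 0.62 ± 0.19 (limma, adjusted p = 0.0216), and lower in L428, at -0.91 ± 0.19 (limma, adjusted p = 0.0033).

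Single libraries decided some of the weaker calls by line. In KM-H2 the NFKBIE call was lost without either KM-H2 library or either Reh library (adjusted p from 0.0511 to 0.0891) or in a fit to the compared groups only (adjusted p = 0.0592), and the NFKB1 call without KM-H2 library 0 (adjusted p = 0.063). Without KM-H2 library 1 TNFAIP3 was called lower there, at -1.28 (adjusted p = 0.0286), and without KM-H2 library 0 RELA was called higher, at 0.68 (adjusted p = 0.0387). BCL3 in KM-H2, at 0.97 ± 0.42 (limma, adjusted p = 0.0865), was called without Namalwa library 0 or without either L1236 library (adjusted p from 0.0381 to 0.0444) and with a replicate block by column number (adjusted p = 0.0261). In L1236 the REL call, at 0.76 ± 0.23 (limma, adjusted p = 0.026), was lost without either L1236 library, Namalwa library 1 or Reh library 1 (adjusted p from 0.0575 to 0.126) or in a fit to the compared groups only (adjusted p = 0.0896). The RELB call in L1236, at 1.03 ± 0.32 (limma, adjusted p = 0.0272), was lost without L1236 library 0, Namalwa library 1 or Reh library 1 (adjusted p from 0.0729 to 0.198) or in that fit (adjusted p = 0.0657). TNFAIP3 in L1236 was called without either KM-H2 library (adjusted p = 0.0489 and 0.0495). In L428 the RELB call was lost without L428 library 1 (adjusted p = 0.0582) and the BCL3 call without L428 library 0 (adjusted p = 0.119) or Reh library 1 (adjusted p = 0.0525).

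The cHL lines were also compared with each other. Of the 10 genes 8 were called in at least 1 of the 3 comparisons, in either direction, as were 55.7% of all genes. L428 against L1236 gave 3 of the 10 genes called higher and 3 lower, with 15.3% of all genes in each direction (higher and lower). TNFAIP3 was higher in L428 by 3.52 ± 0.48 (limma, adjusted p = 0.000538), TRAF1 by 2.74 ± 0.25 (limma, adjusted p = 4.72e-05) and REL by 0.92 ± 0.27 (limma, adjusted p = 0.0302). NFKBIE differed by -2.03 ± 0.21 (limma, adjusted p = 0.000106), NFKBIA by -1.15 ± 0.26 (limma, adjusted p = 0.00844) and NFKB1 by -1.09 ± 0.29 (limma, adjusted p = 0.0197). L428 therefore had less NFKBIA and NFKBIE RNA and more TNFAIP3 RNA than L1236, which does not extend to other IκB genes. The REL call was lost without any one of the 4 libraries compared (adjusted p from 0.0689 to 0.126), the NFKB1 call without L1236 library 0 or 1 or L428 library 0 (adjusted p from 0.0513 to 0.11), and the NFKBIA call without L1236 library 1 (adjusted p = 0.0639) or L428 library 0 (adjusted p = 0.0505). In a fit to these 4 libraries alone neither NFKB1 (adjusted p = 0.0618) nor NFKBIA (adjusted p = 0.1) was called. KM-H2 against L428 gave 2 called higher and 2 lower, with 18.4% and 18% of all genes. TNFAIP3, at -4.84 ± 0.48 (limma, adjusted p = 5.99e-05), and TRAF1, at -1.39 ± 0.25 (limma, adjusted p = 0.0024), were lower in KM-H2, the TRAF1 call being lost (adjusted p = 0.0678) when only these 4 libraries were fitted. NFKBIE was higher there by 1.53 ± 0.21 (limma, adjusted p = 0.00051). NFKB1 was higher by 0.90 ± 0.29 (limma, adjusted p = 0.0375), a call lost when KM-H2 library 0, either L428 library, either Namalwa library or either Reh+PMA library was left out (adjusted p from 0.0505 to 0.221), without the filter on low FPKM (adjusted p = 0.0507) and when only these 4 libraries were fitted (adjusted p = 0.188). Without KM-H2 library 0 NFKB2 was called higher in KM-H2 than in L428, at 0.87 (adjusted p = 0.0465), and without L428 library 1 so was NFKBIA, at 0.91 (adjusted p = 0.0359). KM-H2 against L1236 gave 3 called higher and none lower, with 18.1% of all genes in each direction.

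In the comparison of KM-H2 with L1236, TRAF1 was higher in KM-H2 by 1.35 ± 0.25 (limma, adjusted p = 0.00278). NFKB2 was higher by 0.98 ± 0.29 (limma, adjusted p = 0.0249), a call lost without KM-H2 library 1 or either L1236 library (adjusted p from 0.0842 to 0.152). RELB was higher by 1.14 ± 0.37 (limma, adjusted p = 0.0394), which was lost without KM-H2 library 0, L1236 library 1 or either Reh+PMA library (adjusted p from 0.0594 to 0.214), with a pseudocount of 0.1 (adjusted p = 0.058) or without the filter on low FPKM (adjusted p = 0.0582). Without KM-H2 library 1 TNFAIP3 was called lower in KM-H2 than in L1236, at -2.09 (adjusted p = 0.00633). Without KM-H2 library 0 RELA was called higher, at 1.14 (adjusted p = 0.00879), and without L1236 library 1 BCL3 was called lower, at -1.70 (adjusted p = 0.0325). The libraries of the cHL lines deviated together by their column number, with correlations of 0.427 between KM-H2 and L1236, 0.301 between KM-H2 and L428, and 0.681 between L1236 and L428. With that number as a replicate block, 5 of the 10 genes were called between KM-H2 and L1236, the additions being TNFAIP3, at -1.32 (adjusted p = 0.0462), and BCL3, at -1.04 (adjusted p = 0.0441), both lower in KM-H2. A fit to these 4 libraries alone left 1 of the 10 called.

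PMA-treated Reh was also set against the cHL lines. Of the 10 genes 4 passed the test as higher in the cHL mean than in Reh+PMA and none as lower, with 32.2% and 25.9% of all genes and a median over all genes of 0.11. REL, which was not called with PMA, differed most, by 1.99 ± 0.22 (limma, adjusted p = 6.83e-05). NFKB2 differed by 1.49 ± 0.23 (limma, adjusted p = 0.000579), TRAF1 by 0.96 ± 0.21 (limma, adjusted p = 0.00357) and NFKBIA by 0.97 ± 0.21 (limma, adjusted p = 0.00349). For TRAF1, however, both L1236 libraries (10.5 and 14.3 FPKM) were below both Reh+PMA libraries (14.8 and 18.5). For NFKBIA, L428 (77.4 and 121 FPKM) overlapped with Reh+PMA (64.6 and 83.5). The NFKBIA call was lost without Reh+PMA library 1 (adjusted p = 0.0509). RELB (0.76 ± 0.30; limma, adjusted p = 0.0564), BCL3 (1.02 ± 0.40; limma, adjusted p = 0.0506) and RELA (-0.62 ± 0.25; limma, adjusted p = 0.058) lay close to the threshold. Each of the 3 was called when certain single libraries were left out: RELB without KM-H2 library 1, L1236 library 1, L428 library 0 or either Namalwa library (adjusted p from 0.0346 to 0.0487), BCL3 without L1236 library 1, L428 library 1 or either Namalwa library (adjusted p from 0.0128 to 0.048), and RELA, as lower, without either KM-H2 library (adjusted p = 0.00444 and 0.0473) and with median-of-ratios rescaling (adjusted p = 0.0471). With a replicate block by column number RELB (adjusted p = 0.0424) and BCL3 (adjusted p = 0.0134) were called higher in the cHL lines, so that 6 of the 10 genes were called. NFKB1 was called without KM-H2 library 1 (adjusted p = 0.0436). This comparison and the one with the untreated controls use the same cHL libraries.

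The rest of the pathway was described with 4 lists, whose counts stand against 14.7% of all genes called higher and 17.2% lower with PMA, and 29.6% higher and 25.8% lower in the cHL lines. Of 11 genes of the IκB kinase complex and its upstream kinases, 3 were higher and 3 lower with PMA, with a median of -0.02. In the cHL lines 3 were higher and 2 lower than in controls, with a median of 0.24, both shares close to or under those of all genes. MAP3K14, which makes NIK, was 2.34 and 2.54 FPKM in Reh and 6.53 and 6.89 in Reh+PMA. It was 2.55 and 2.88 in KM-H2, 8.10 and 13.0 in L1236, and 10.9 and 19.0 in L428, so KM-H2 overlapped with the controls. MAP3K14 differed by 1.17 ± 0.29 with PMA (limma, adjusted p = 0.0158) and by 1.25 ± 0.19 in the cHL lines (limma, adjusted p = 0.000456). RIPK1, a kinase of TNF receptor signalling, differed by 0.76 ± 0.24 (limma, adjusted p = 0.039) with PMA and by 1.58 ± 0.16 (limma, adjusted p = 2.85e-05) in the cHL lines. IKBKE, a non-canonical IκB kinase, fell with PMA, at -1.80 ± 0.34 (limma, adjusted p = 0.00461), and IKBKG, the scaffold NEMO, at -1.84 ± 0.54 (limma, adjusted p = 0.0303). The PMA calls of RIPK1, IKBKG and MAP3K14 were each lost without any one of the Reh and Reh+PMA libraries (adjusted p from 0.0605 to 0.191), that of RIPK1 also without either L1236 library (adjusted p = 0.0532 and 0.0537), and that of IKBKG also with quantile normalisation (adjusted p = 0.0568) or without the filter on low FPKM (adjusted p = 0.0526). Lower in the cHL lines were TAB1, at -0.79 ± 0.11 (limma, adjusted p = 0.00034), and its kinase partner MAP3K7, at -0.49 ± 0.16 (limma, adjusted p = 0.027). The MAP3K7 call was lost without KM-H2 library 0, L1236 library 0, L428 library 1, Namalwa library 1 or either Reh library (adjusted p from 0.0558 to 0.101), and against Reh alone (adjusted p = 0.0884) or Namalwa alone (adjusted p = 0.0615).

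Of 16 further inhibitors 7 were higher and none lower with PMA, with a median of 0.58. Against the controls, 9 were higher in the cHL lines and none lower, with a median of 0.96. RNF11, a partner of A20, rose with PMA by 1.61 ± 0.25 (limma, adjusted p = 0.00156) and was higher in the cHL lines by 2.22 ± 0.16 (limma, adjusted p = 3.74e-06). RNF11 was 64.5 to 99.4 FPKM in L1236 and L428. In KM-H2 it was 14.4 and 23.1 FPKM, which overlapped with Reh (17.8 and 19.8) but not with Namalwa (5.33 and 5.54). NFKBID, which makes a nuclear IκB protein, was 3.32 and 3.56 FPKM in Reh and 23.7 and 25.9 in Reh+PMA, a rise of 2.54 ± 0.39 (limma, adjusted p = 0.00154), and differed by -0.15 ± 0.25 in the cHL lines (limma, adjusted p = 0.631). TNIP3, which binds A20, was listed at 0 in all control and Reh+PMA libraries, at 0.309 and 0.471 FPKM in KM-H2, 21.8 and 26.6 in L1236, and 3.92 and 4.81 in L428. Its highest values were thus in L1236.

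Of 12 adaptors and ubiquitin ligases 6 were higher and 1 lower with PMA, with a median of 1.05. Against the controls, 5 were higher and 3 lower in the cHL lines, with a median of 0.20, the lower share being near that of all genes. BIRC3, a ubiquitin ligase that keeps NIK low, was 0.122 and 0.348 FPKM in Reh, 3.93 and 4.79 in Reh+PMA, 43.7 and 67.6 in Namalwa, and 20.7 to 123 in the cHL lines. BIRC3 rose with PMA by 2.12 ± 0.27 (limma, adjusted p = 0.000596) and was higher in the cHL lines by 2.55 ± 0.17 (limma, adjusted p = 2.84e-06), but with Namalwa alone as control its difference was -0.20. TRAF5 was lower with PMA, at -1.28 ± 0.19 (limma, adjusted p = 0.0012). TRADD, an adaptor of TNF receptors, was higher in the cHL lines by 1.36 ± 0.17 (limma, adjusted p = 0.000164). TRAF2 was listed at 0 in both L1236 libraries and was 12.2 to 26.6 FPKM in KM-H2 and L428 and 18.5 to 23.1 in the untreated controls.

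Of 29 genes known as NF-κB targets, 14 were higher and 2 lower with PMA, with a median of 0.63, or 1.34 without the 9 genes that were listed at 0 in a whole group. In the cHL lines 21 were higher and 4 lower, with a median of 2.88, or 2.68 without the 11 genes so listed. CCND2, the D-type cyclin, was 0.899 and 1.57 FPKM in Reh, 0 and 0.016 in Namalwa, and 62.5 to 246 in the cHL lines, a difference of 6.30 ± 0.22 (limma, adjusted p = 7.92e-08). CXCL10, a chemokine, was listed at 0 in Reh, was 0.391 and 0.558 FPKM in Namalwa, and 5.58 to 621 in the cHL lines. LTB, which makes lymphotoxin β, went the other way, at 63.5 and 91.2 FPKM in Reh, 4.24 and 11.4 in Namalwa and below 1 in every cHL library, a difference of -4.27 ± 0.28 (limma, adjusted p = 2.13e-06). With PMA the chemokine genes CCL3 and CCL4 were listed at 0 in both Reh libraries and stood at 374 and 634 FPKM (CCL3) and 90.3 and 351 FPKM (CCL4) in Reh+PMA. In the cHL lines CCL4 was at most 0.506 FPKM, and it was called lower than in the controls at -1.26 ± 0.41 (limma, adjusted p = 0.0278), a call lost without KM-H2 library 0, L1236 library 0, L428 library 1, Namalwa library 1 or either Reh library (adjusted p from 0.0508 to 0.117) and of the opposite sign (0.17) against Reh alone. IRF1 and CCL5 fell with PMA, at -2.08 ± 0.17 (limma, adjusted p = 5.71e-05) and -1.80 ± 0.36 (limma, adjusted p = 0.00568), the CCL5 call being lost without Reh library 0 (adjusted p = 0.0538) or in a fit to these 4 libraries alone (adjusted p = 0.0768). With the cell line as the unit, CCND2 (adjusted p = 0.0258) was the only gene named from these lists for the cHL comparison that was still called.

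**Figure D4:**
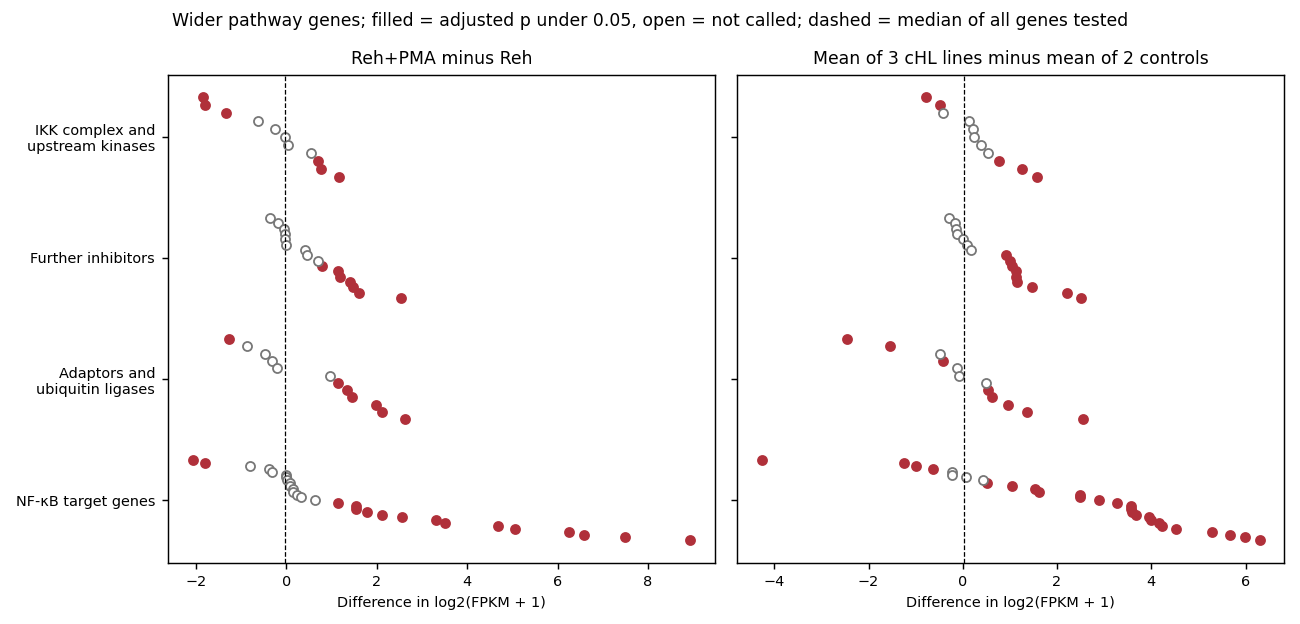
Difference on the log2(FPKM + 1) scale for every gene of the 4 wider lists, between Reh+PMA and Reh (left) and between the mean of the cHL lines and the mean of the controls (right); each point is a gene, filled where limma's adjusted p was under 0.05, and the dashed line is the median of all genes tested. The target list has 14 of 29 genes filled to the right with PMA and 21 of 29 in the cHL lines, the kinase list is split 3 to 3 and 3 to 2, and the size of a difference for a gene listed at 0 in a whole group depends on the pseudocount.

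Across the 12 libraries the pair of members with the highest correlation on the log2(FPKM + 1) scale was NFKB2 and TRAF1 (Pearson r = 0.874), followed by NFKB2 and REL (0.742) and NFKB2 and RELB (0.738). Over libraries the lowest was NFKBIE and TNFAIP3 (r = -0.484). NFKBIA ran with BCL3 (0.708) and NFKB1 with NFKBIE (0.681). These values are descriptions over libraries that come in pairs from 6 groups, and the paired libraries share their line. Over the 6 group means the order differed: NFKB2 and TRAF1 were still highest (0.891), followed by NFKBIA and BCL3 (0.861), and RELA and BCL3 were lowest (-0.56).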

How the data were processed

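Per the labels and the study's methods, total RNA was depleted of ribosomal RNA and made into stranded TruSeq libraries in duplicate. The submitters' processing notes name TopHat2 2.0.11, Cuffnorm 2.2.1 and the hg19 build, and the deposited values are the authors' FPKM per gene for 26210 genes. Cuffnorm scales libraries to each other. Counts were not used here, and whole reads could not be recovered from the low FPKM values, so depth is unknown and no interval for counting error is given. HiSeq and NextSeq instruments were used, but which library ran on which is not given in the sources used here.

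Differences were tested with limma 3.58.1 in R 4.3.3 on log2(FPKM + 1), which understates the change of low genes. Genes with at least 1 FPKM in at least 2 libraries (14679) were fitted with 6 group means and a trended variance prior, and p-values were adjusted by Benjamini-Hochberg over all of them, with a threshold of 0.05. All groups shared a single spread per gene, although libraries of a cHL line differed more than those of the other groups. The SEs may thus be too small between cHL lines and too large between Reh+PMA and Reh. The labels do not say that duplicates came from separate cultures, so p-values measure the spread between these libraries, which may be technical. Table columns are numbered 0 and 1 within a group, and these could not be matched to the replicate numbers of the labels. The 10 genes and the 4 lists were chosen with earlier results of these data known, and none is independent evidence. From each list the text names, for the PMA and the cHL comparison, up to 2 called genes with the largest rise and up to 2 with the largest fall. One gene that this rule names is not reported here. Alternatives were another scaling (quantile, median of ratios), a pseudocount of 0.1, no filter, fits over the compared groups only, an untrended prior, a required log2 difference of 1, a block by column number, each library left out, the cell line as the unit, and each control alone, the last added after seeing the data.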

Additional observations from a re-analysis of the deposited data

Results flagged for a closer look

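In 8 of the 10 genes the difference from the controls was itself different between cHL lines, by limma's test of one line against another, adjusted over all genes, which held for 55.7% of all genes, so the count says nothing particular to these 10. TNFAIP3 differed most, at -4.84 for KM-H2 minus L428 (adjusted p = 5.99e-05), with both KM-H2 libraries below both L428 libraries. TRAF1 was higher in L428 than in L1236 by 2.74 (adjusted p = 4.72e-05) and REL by 0.92 (adjusted p = 0.0302). NFKBIE was lower in L428 than in L1236, at -2.03 (adjusted p = 0.000106), as were NFKBIA, at -1.15 (adjusted p = 0.00844), and NFKB1, at -1.09 (adjusted p = 0.0197). KM-H2 exceeded L1236 for NFKB2 by 0.98 (adjusted p = 0.0249) and for RELB by 1.14 (adjusted p = 0.0394). RELA and BCL3 differed between no pair of cHL lines at this threshold in the fit over all 12 libraries, though with a replicate block by column number BCL3 did between KM-H2 and L1236 (adjusted p = 0.0441). Each difference rests on 2 libraries of 1 line on each side, and those of REL, NFKB1, NFKBIA, NFKB2 and RELB were lost when single libraries were left out.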

How the results depend on the processing

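Of the 10 genes, no call or sign in the comparison of Reh+PMA with Reh changed under another scaling, pseudocount, filter, prior or set of groups in the fit. NFKB2, RELB and TRAF1 stayed called without any single library. Requiring a log2 difference of 1 as well left 3614 genes called for the cHL lines against the controls (8126 without it), 4456 for KM-H2, 4251 for L1236, 4404 for L428, and 5124 genes and 2 members for the cHL lines against Reh+PMA (8522 genes and 4 members). With the cell line as the unit, 80 genes and 0 members were called. That fit has 5 lines in place of 10 libraries and uses the spread between lines, and which of these lowered the count was not tested. Fits over the compared groups only, which have 2 residual degrees of freedom between single groups, called 6 members for L1236 against the controls (8 in the fit over all groups), 6 for KM-H2 against them (7), 3 for Namalwa against Reh (5), 2991 genes and 1 member for KM-H2 against L1236 (5316 and 3), 2155 genes and 2 members for KM-H2 against L428 (5348 and 4), and 2395 genes for L428 against L1236 (4495). With Reh alone as control the differences of TNFAIP3 (-0.98) and CCL4 (0.17) changed sign, and with Namalwa alone those of RELB (-0.12) and BIRC3 (-0.20) did.

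The column numbers could not be tied to the labels' replicate numbers, so no pairing by label was possible. A replicate block by column number was fitted instead. Deviations of same-numbered columns correlated at -0.045 to 0.681 over the 15 pairs of groups, above 0.1 in 6, among them all 3 pairs of cHL lines. The numbers were not taken to pair the series as a whole, and whether they mark a shared batch in the cHL lines is not given in the sources used here. With the replicate block 5 members were called for KM-H2 against L1236 (3 without it), the additions being TNFAIP3 (adjusted p = 0.0462) and BCL3 (adjusted p = 0.0441). BCL3 was also added for KM-H2 against the controls (adjusted p = 0.0261), and RELB (adjusted p = 0.0424) and BCL3 (adjusted p = 0.0134) for the cHL lines against Reh+PMA.

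Leaving out each library in turn gave 2241 to 5097 genes and 3 to 5 members called for Reh+PMA against Reh, and 6716 to 8091 genes and 8 to 9 members for the cHL lines against the controls. The ranges were 5225 to 7092 genes and 6 to 8 members for KM-H2, 4466 to 7001 and 6 to 9 for L1236, and 4817 to 7197 and 7 to 8 for L428. For Namalwa against Reh they were 2223 to 3956 and 4 to 5. Between cHL lines they were 3625 to 5477 and 2 to 3 for KM-H2 against L1236, 3828 to 5232 and 3 to 4 for KM-H2 against L428, and 2758 to 4900 and 3 to 6 for L428 against L1236. For the cHL lines against Reh+PMA they were 5850 to 8533 and 3 to 7. A lone remaining library is assumed to vary as the other groups do. Each group had only 2 libraries, and only FPKM was at hand. Between cHL lines, member calls near the spread of the cHL libraries did not hold when single libraries were left out. Among them were REL in L428 against L1236 (0.92) and NFKB1 in KM-H2 against L428 (0.90).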
